A study of Mus musculus with 6 samples.

Results

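Spliceosomal small nuclear RNAs (snRNAs) and the RNAs of the Cajal body were examined in RNA recovered with anti-EZH2 or with normal IgG from mouse left ventricle. The genes were those named Rnu or Scarna followed by a digit, and 26 of the 46072 genes of the tables carried such a name. By role they were 8 genes of the major spliceosome (U1, U2, U5 and U6), 2 of the minor spliceosome (U11 and U12), the U7 gene, 5 genes of U3, 1 gene of U73 and 9 small Cajal body RNAs (scaRNAs). U3 and U73 are small nucleolar RNAs of the C/D box kind, which work on ribosomal RNA and not in the spliceosome, and were caught by the name. None of these names was for U4, U4atac or U6atac, and spliceosomal RNAs listed under other names were used here only as copies of a named gene.

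In RNA immune-precipitation sequencing (RIP-seq), RNA that stays bound to a protein while an antibody captures it is purified and sequenced, and EZH2 is the methyltransferase of the Polycomb repressive complex. Male C57BL/6 mice of 10 weeks carried an osmotic minipump that delivered angiotensin II (AngII) at 1 mg/kg/min for 4 or 24 h, or saline (Sham), with 2 mice in each group; the labels call Sham mice untreated, and those of the anti-EZH2 libraries after AngII give the strain as C57BL/7 at 4 h and C57BL/8 at 24 h. In each group 2 RIP products were mixed into an anti-EZH2 library and 2 into an IgG library. Each of the 6 combinations thus had 1 library, no spread between replicates could be measured, and all intervals below cover counting error only.

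In the major spliceosome U1 pairs with the 5′ splice site, U2 with the branch point, and U5 holds the exon ends. U6 arrives paired with U4, which is released, and then forms the catalytic core with U2. In the minor spliceosome, which removes a small class of introns, U11 and U12 take the places of U1 and U2. All of these except U6 and U6atac gain a ring of Sm proteins in the cytoplasm and return to the nucleus, where they pass through Cajal bodies. There the scaRNAs guide the chemical modification of single snRNA bases by C/D or H/ACA box proteins. U7, another Sm-bound RNA, directs the processing of histone mRNA ends.

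The values were FPKM, fragment counts scaled by length and by library size, and the reads behind them were recovered from the values with a model of fragment length. In that model the length is an effective one, the number of places where a fragment can lie, so that few reads give a short gene a high FPKM. In the Sham IgG library Rnu5g was at 2045 FPKM from 37 reads and Scarna2 at 255 FPKM from 234 reads. The libraries came to between 3.82e+06 and 7.99e+06 fragments, as estimated from the worth of 1 read. The FPKM of these genes together made up between 4.18% and 5.83% of the summed FPKM of a library. This is not a share of reads, as the genes together held between 3528 and 12453 recovered reads in a library. All 6 ventricular cardiomyocyte markers were above 0 in every library, with a summed FPKM between 5259 and 9312, against 5.14 to 34.5 for the 3 atrial markers, of which Sln was at 0 in all libraries. Summed FPKM was between 8.65 and 21.9 for the endothelial, 40.5 and 61.6 for the fibroblast, 10.9 and 18.7 for the leukocyte and 583 and 1451 for the erythroid markers. Of 134 values above 0 of the snRNA and Cajal body genes, 69 lay outside their own deposited interval, so those intervals were not used.

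The sequences of 4 spliceosomal RNAs on which the results turn are shown because the values of copies depend on them, and because they share a run of uridines of the kind that the Sm ring binds. They are GENCODE M21 transcripts on GRCm38 (mm10), written 5′ to 3′ as DNA, with capitals for the letters ATTTNTG or ATTTTTTG.
Rnu1a1 (U1a, chr11:87422867-87423030, plus strand): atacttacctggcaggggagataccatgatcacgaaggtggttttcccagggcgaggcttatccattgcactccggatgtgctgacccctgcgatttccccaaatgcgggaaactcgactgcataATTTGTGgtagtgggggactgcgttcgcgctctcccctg
Rnu2-10 (U2, chr11:101658238-101658428, plus strand): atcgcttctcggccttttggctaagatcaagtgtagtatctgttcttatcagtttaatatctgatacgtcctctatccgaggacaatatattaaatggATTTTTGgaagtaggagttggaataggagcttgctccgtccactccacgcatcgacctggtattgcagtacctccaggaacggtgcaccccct
Rnu11 (U11, chr4:132270080-132270213, minus strand): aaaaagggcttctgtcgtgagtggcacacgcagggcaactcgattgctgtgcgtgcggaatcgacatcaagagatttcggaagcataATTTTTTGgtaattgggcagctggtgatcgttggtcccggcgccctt
Rnu12 (U12, chr15:83149644-83149794, plus strand): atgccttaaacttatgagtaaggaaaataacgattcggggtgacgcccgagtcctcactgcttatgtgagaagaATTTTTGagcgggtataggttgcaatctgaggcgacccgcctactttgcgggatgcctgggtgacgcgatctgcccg

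The letters, searched on the transcript strand alone, were found in 7 of the 25 genes searched, namely the 4 U1 genes, Rnu2-10, Rnu11 and Rnu12. These were 7 of the 12 searched genes with a transcript of 100 to 200 nt, and over all 4203 transcripts of that length 8.99% held them. The letters spell the sites of these same RNAs, and the 4 U1 genes are close copies of each other. The 2 shares are thus a description, and enrichment was not tested. Copies of U1 and U2 are dispersed in the genome, and the values cannot tell identical ones apart. The sequence of Rnu1a1 was shared by 6 other genes, that of Rnu2-10 by 3, that of Rnu1b6 by 2, that of Rnu1b1 by Rnu1b2 and that of Rnu6 by 42. The identical genes of U1, U1b and U2 were listed within 3% of each other in every library, and whether a read was counted at each copy or divided among the copies is not given in the sources used here.

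The U1b genes code a variant of U1 that is known mainly from embryonic tissue. Rnu1b1 shared 158 of 165 aligned bases with Rnu1a1, and the 7 that it did not share are in capitals.
Rnu1b1 (U1b, chr3:96359953-96360117, minus strand): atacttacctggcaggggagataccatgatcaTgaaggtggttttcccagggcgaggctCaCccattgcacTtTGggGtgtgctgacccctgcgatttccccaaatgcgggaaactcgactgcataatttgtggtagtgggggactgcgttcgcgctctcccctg

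The annotation placed Rnu1a1 in an intron of Tex14 and Rnu1b1, Rnu2-10, Rnu11 and Rnu12 in no longer gene.

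Rnu1a1, the U1 gene of adult tissue, had the highest FPKM of these genes in every library. It was at 92251, 72950 and 67844 FPKM in the Sham, AngII 4 h and AngII 24 h IgG libraries and at 60058, 56107 and 23948 FPKM in the anti-EZH2 libraries of the same order. This order of groups holds for every series of 3 values below. In each group its IgG value was above its anti-EZH2 value. The median anti-EZH2/IgG ratio over all genes was below 1 in each group too, at 0.808, 0.929 and 0.638. The AngII 24 h anti-EZH2 library was lowest for Rnu1a1, with 1684 reads against 3806 to 6584 in the others.

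Rnu1b1 was at 4918, 5693 and 5351 FPKM with IgG and at 4020, 4541 and 2009 FPKM with anti-EZH2. Rnu1b2, of the same sequence, had values between 1999 and 5685 FPKM and differed from Rnu1b1 by less than 1 read in each library. Rnu1b6 was at 4279, 5200 and 4769 FPKM with IgG and at 3795, 4390 and 1822 FPKM with anti-EZH2. The U1b genes, too, were lowest in the AngII 24 h anti-EZH2 library. In each group the IgG value of Rnu1b1 and of Rnu1b6 was above the anti-EZH2 value.

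Rnu2-10, a U2 gene, was at 2065, 7715 and 9686 FPKM with IgG and at 2036, 6218 and 3485 FPKM with anti-EZH2. Both Sham libraries were lowest, and the 4 AngII libraries lay above them with either antibody. Rnu5g, a U5 gene, was at 2045, 7753 and 11450 FPKM with IgG and at 9497, 10522 and 4260 FPKM with anti-EZH2. Here the Sham IgG library was lowest, with 37 reads against 85 to 351 in the others.

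Rnu6, one of many U6 genes, was listed at 11.2, 6.15 and 16.7 FPKM with IgG and at 14.0, 36.5 and 10.1 FPKM with anti-EZH2, all under 1 read. The U6 pseudogene Rnu6-ps2 was above 0 only in the AngII 4 h anti-EZH2 library, at 2.03 FPKM and under 1 read. A level of U6 could not be read from these rows, and the 42 other genes with the sequence of Rnu6 were not summed. Rnu7 (62 nt) was at 0 in all 6 libraries, which allows up to 3 reads in each.

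Of the minor spliceosome, Rnu11 was at 2080, 2088 and 2525 FPKM with IgG and at 3992, 2133 and 912 FPKM with anti-EZH2. The Sham anti-EZH2 library was highest and the AngII 24 h anti-EZH2 library lowest, with 162 and 31 reads. Rnu12 was at 1371, 2406 and 4555 FPKM with IgG and at 2476, 3659 and 1937 FPKM with anti-EZH2. The AngII 24 h IgG library was highest here and the Sham IgG library lowest, with 190 and 65 reads.

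Among the scaRNAs the highest FPKM, in the library median, were those of Scarna3a, Scarna3b and Scarna10. Scarna3a and Scarna3b, of the H/ACA box kind, lie in introns of Cop1 and Dcaf5 and shared 85.7% of their bases. Both end with an ACA box, in capitals, followed by 2 nt.
Scarna3a (chr1:159340283-159340422, plus strand): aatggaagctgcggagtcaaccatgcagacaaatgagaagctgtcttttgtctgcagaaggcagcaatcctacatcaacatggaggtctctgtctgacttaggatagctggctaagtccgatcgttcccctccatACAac
Scarna3b (chr12:80391613-80391751, minus strand): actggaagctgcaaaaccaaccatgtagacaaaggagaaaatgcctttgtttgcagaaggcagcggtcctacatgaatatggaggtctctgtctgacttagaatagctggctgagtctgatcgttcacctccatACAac

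Scarna3a was at 1996, 1530 and 2092 FPKM with IgG and at 1045, 1758 and 753 FPKM with anti-EZH2. Scarna3b was at 1593, 1687 and 2243 FPKM with IgG and at 944, 1512 and 644 FPKM with anti-EZH2. The ratio of reads of Scarna3a to Scarna3b was between 0.931 and 1.29 over the 6 libraries, and its 95% interval held 1 in each of them.

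Scarna10, which overlaps an exon of Ncapd2, was at 1472, 1574 and 2207 FPKM with IgG and at 1070, 1283 and 752 FPKM with anti-EZH2. It had the most reads of the scaRNAs (447 to 1274), and in each group its IgG value was above its anti-EZH2 value. Gm28967, a gene annotated on the same strand inside Scarna10, held a further 63 reads in the Sham IgG library, 80 in the AngII 24 h anti-EZH2 library and under 1 read in the rest.

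Scarna2, a longer scaRNA of 414 nt, was at 255, 254 and 364 FPKM with IgG and at 154, 233 and 177 FPKM with anti-EZH2. Scarna13, in an intron of Snhg10, was at 139, 110 and 164 FPKM with IgG and at 79.0, 69.0 and 52.4 FPKM with anti-EZH2. For both genes the IgG value was above the anti-EZH2 value in each group. Scarna6, in an intron of Atg16l1, was at 64.4, 58.3 and 91.2 FPKM with IgG and at 39.1, 59.3 and 32.1 FPKM with anti-EZH2, from 11 to 34 reads. Scarna8, in an intron of Haus6, was at 247, 87.2 and 437 FPKM with IgG and at 266, 517 and 288 FPKM with anti-EZH2, from 3 to 27 reads. Scarna17 was at 243, 802 and 0 FPKM with IgG and at 989, 528 and 1102 FPKM with anti-EZH2, although no library held more than 5 reads of it. Scarna9 was at 0 in all 6 libraries. Rnu73b, in an intron of Rps3a1, was above 0 only in the Sham and AngII 4 h anti-EZH2 libraries, at 1116 and 413 FPKM from 4 and 2 reads.

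**Figure D1:**
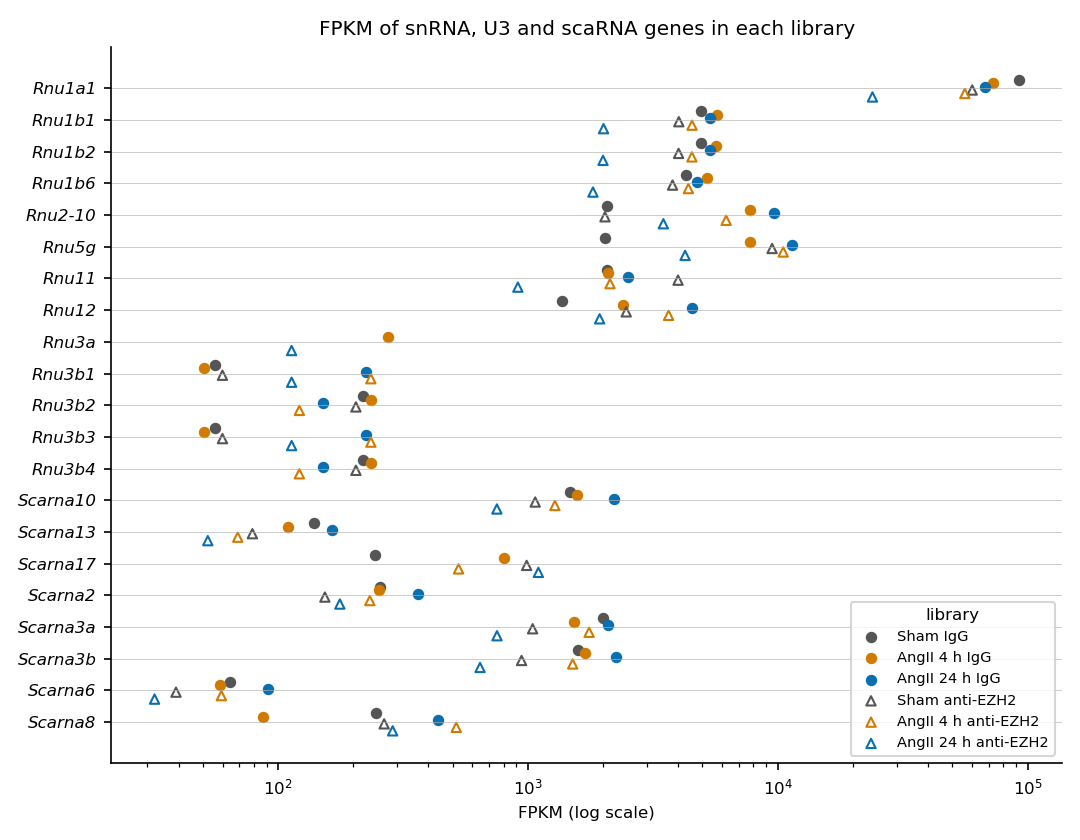
FPKM (horizontal log axis) of each gene with at least 5 reads in a library; filled circles are IgG and open triangles anti-EZH2 libraries, in grey (Sham), orange (AngII 4 h) and blue (AngII 24 h), and values under 1 read are left out. Rnu1a1 lies highest, between 23948 and 92251 FPKM, and the Sham libraries of Rnu2-10 (2065 and 2036 FPKM) lie left of its other 4.

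The U3 genes needed their loci to be read as a whole. Rnu3a was listed at 276 FPKM in the AngII 4 h IgG library and at 113 FPKM in the AngII 24 h anti-EZH2 library, but at 0.0315 to 0.0595 FPKM in the other 4 libraries. A second row of the tables, named U3, covered the same locus (chr10:40258467-40258679) and ended 1 nt earlier. That row held 55, 46, 57 and 96 reads in the Sham IgG, AngII 24 h IgG, Sham anti-EZH2 and AngII 4 h anti-EZH2 libraries and under 1 read in the libraries where Rnu3a was high. Added together, the 2 rows gave 55, 53 and 46 reads with IgG and 57, 96 and 20 reads with anti-EZH2.

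The 4 U3b loci, in introns of Tex14 and of identical sequence, were each listed by 2 rows in the same way. Rnu3b1 and Rnu3b3 were at 56.1, 50.5 and 224 FPKM with IgG and at 59.9, 235 and 113 FPKM with anti-EZH2. Rnu3b2 and Rnu3b4, which named the row that ended earlier, were at 218, 235 and 152 FPKM with IgG and at 205, 122 and 2.45 FPKM with anti-EZH2. From the Sham to the AngII 24 h IgG library the first pair of rows was higher and the second lower. With both rows, the Rnu3b1 locus held 44, 56 and 54 reads with IgG and 57, 107 and 21 reads with anti-EZH2, and folds of single U3 rows are therefore not used as levels of U3 below.

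**Figure D2:**
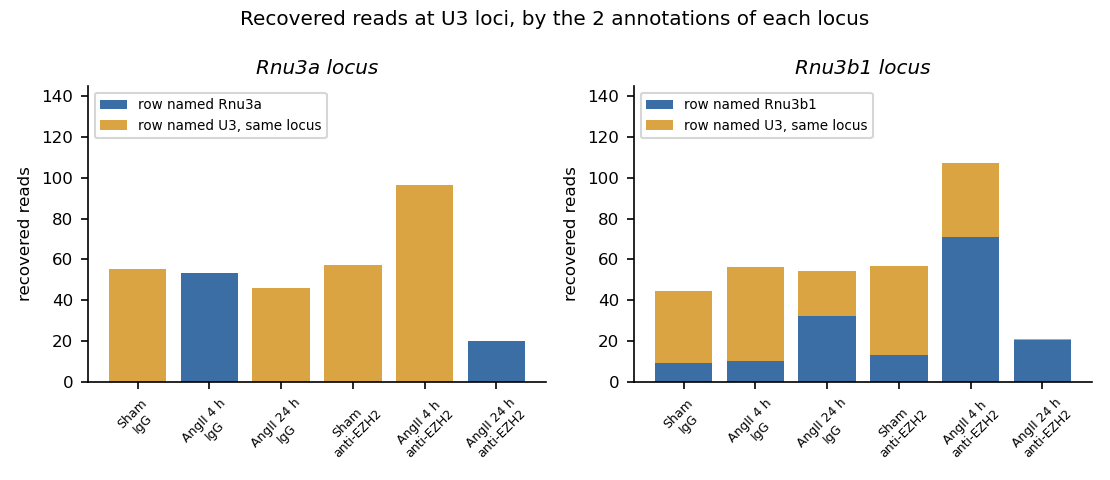
Recovered reads (vertical axis) at the Rnu3a and the Rnu3b1 locus in each library, stacked by the 2 rows that list each locus. At the Rnu3a locus nearly all reads of a library fall to 1 row, and the sums run from 20 to 96 reads.

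The first comparison asked whether these RNAs were recovered more with anti-EZH2 than with IgG. In the Sham group 2 of the 21 genes that could be compared (FPKM above 0 in both libraries and above 1.0 in at least 1) had an anti-EZH2/IgG ratio above 2 and 0 had a ratio below 0.5, with a median ratio of 0.941. Over all genes the shares were 14.3% above 2 and 22.6% below 0.5, with a median of 0.808, and over genes of at most 400 nt they were 29.3% and 11.2%, with a median of 1.24. The 2 genes were Rnu5g and Scarna17. Rnu5g had a ratio of 4.64 (95% exact interval 3.27 to 6.76), from 226 reads with anti-EZH2 and 37 with IgG. Scarna17 had a ratio of 4.06 from 5 reads and 1 read, with an interval of 0.425 to 180 that held 1.

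Rnu11 and Rnu12 came next in the Sham group, with ratios of 1.92 (1.43 to 2.61) and 1.81 (1.34 to 2.44). Their intervals lay above 1. Rnu1a1 lay below 1 at 0.651 (0.627 to 0.676), as did Scarna10 at 0.727 (0.658 to 0.805), Scarna2 at 0.603 (0.495 to 0.735) and Scarna3a at 0.524 (0.360 to 0.767). With the reads of Gm28967 added, the Scarna10 locus was at 0.674 (0.610 to 0.744). Rnu2-10 was at 0.986 (0.826 to 1.18). In the Sham hearts, U5, U11 and U12 were thus higher with anti-EZH2 than with IgG, while Rnu1a1, Rnu1b1, Rnu1b2 and 5 scaRNAs (Scarna10, Scarna13, Scarna2, Scarna3a and Scarna3b) were lower beyond counting error and U2 was not told apart from 1. With the ratios divided by 0.822, the median in Sham of the 4846 genes above 1 FPKM in every library, only Rnu1a1, Scarna10, Scarna2 and Scarna3a of these 8 kept an interval below 1, and the interval of Rnu2-10 lay just above 1 (1.01 to 1.44).

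In the AngII 4 h group 4 of 22 genes were above 2 and 1 was below 0.5, with a median of 0.870. The shares over all genes were 12.8% and 14.3%, and over genes of at most 400 nt 20.3% and 8.91%. Of the 5 genes past the limit, 3 were U3 rows (Rnu3b1, Rnu3b3 and Rnu3a), and 1 was Rnu6 at under 1 read. The other was Scarna8, with 27 reads against 3 and a ratio of 5.92 (1.82 to 30.5). Rnu5g was at 1.36 (1.13 to 1.64) and Rnu12 at 1.52 (1.25 to 1.88), while Rnu11 was at 1.02 (0.762 to 1.38). Rnu1a1 was at 0.769 (0.742 to 0.797) and Rnu2-10 at 0.806 (0.741 to 0.877). With both rows of the U3 loci added, 2 genes were above 2 and 0 below 0.5.

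In the AngII 24 h group 1 of 21 genes was above 2, the U3 row Rnu3a, and 16 were below 0.5, with a median of 0.372. This group was lower with anti-EZH2 in general: 9.35% of all genes were above 2 and 35.7% below 0.5, and among genes of at most 400 nt the shares were 7.02% and 57.9%, with a median of 0.418. The major spliceosomal genes lay close together, with Rnu1a1 at 0.353 (0.333 to 0.374), Rnu2-10 at 0.360 (0.319 to 0.404) and Rnu5g at 0.372 (0.285 to 0.485). Rnu11 was at 0.361 (0.230 to 0.564) and Rnu12 at 0.425 (0.330 to 0.543). Of the scaRNAs, Scarna10 was at 0.341 (0.304 to 0.381), Scarna3b at 0.287 (0.175 to 0.463) and Scarna2 at 0.486 (0.401 to 0.587). With the reads of Gm28967 added, the Scarna10 locus was at 0.402 (0.361 to 0.446). Divided by 0.653, the median ratio in this group of 4846 genes whose FPKM passed 1 in every library, 4 genes were below 0.5 in place of 16. With both rows of the U3 loci added, 0 were above 2 and 19 below 0.5. The counts of 16 and 19 take genes of identical sequence, such as Rnu1b1 and Rnu1b2 or the U3b loci, as separate genes. Without U3 and U7, 14 of 16 genes were below 0.5.

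**Figure D3:**
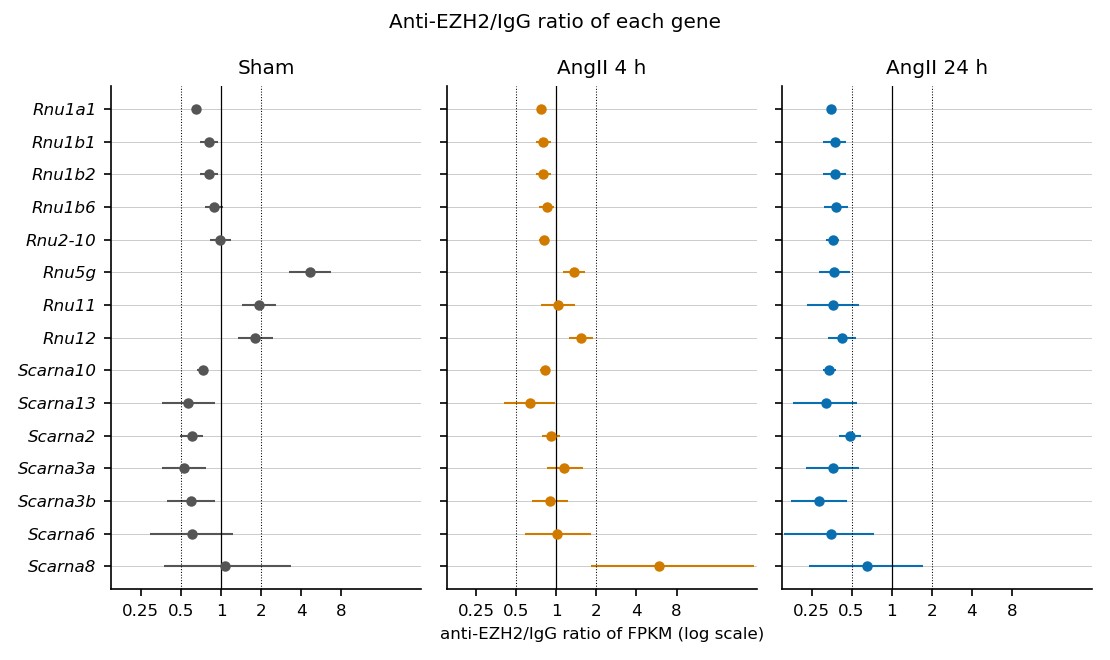
Anti-EZH2/IgG ratio of FPKM (horizontal log axis) of each snRNA and scaRNA gene outside U3 with at least 5 reads in a library, other than Scarna17, in the 3 groups; bars are exact 95% intervals of the ratio of reads, and dotted lines mark 0.5 and 2. Rnu5g (4.64), Rnu11 (1.92) and Rnu12 (1.81) stand to the right of 1 in Sham, and all genes stand to the left of 1 at AngII 24 h.

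By class, the summed FPKM of the major spliceosomal genes had anti-EZH2/IgG ratios, in group order, of 0.755 (0.730 to 0.781), 0.822 (0.798 to 0.847) and 0.359 (0.343 to 0.376), and Rnu1a1 made up most of each sum. Without Rnu1a1 the Sham ratio was 1.28. Of the genes left, Rnu5g was at 4.64, while Rnu1b1, Rnu1b2, Rnu1b6 and Rnu2-10 were at 0.818, 0.815, 0.887 and 0.986. The minor spliceosomal genes had ratios of 1.87 (1.52 to 2.32), 1.29 (1.10 to 1.53) and 0.402 (0.323 to 0.496). The intervals of the minor and the major class were apart in Sham and at AngII 4 h and overlapped at AngII 24 h. The scaRNAs had ratios of 0.763, 0.977 and 0.50 by FPKM, but of 0.682 (0.628 to 0.740), 0.859 (0.804 to 0.919) and 0.371 (0.339 to 0.405) by reads. At AngII 24 h Scarna17 held 1102 of their 3798.5 summed FPKM with anti-EZH2, from 5 reads, and 0 with IgG. The U3 loci, with both rows, had ratios of 0.925 (0.775 to 1.11), 1.25 (1.07 to 1.45) and 0.316 (0.250 to 0.399). The 4 U3b loci of identical sequence enter this sum with equal values. Its intervals are too narrow if a read was counted at each copy. At AngII 4 h the Rnu3a locus alone was at 1.19 (0.844 to 1.70) and the Rnu3b1 locus at 1.26 (0.902 to 1.77), and both intervals held 1.

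The values of each RNA were also summed over its copies, sums that hold the named gene and its identical copies and so are not independent of it. The 33 genes at least 90% identical to Rnu1a1 had summed ratios of 0.656, 0.775 and 0.351, and the 14 such genes of U2 had 0.986, 0.813 and 0.367. The 8 genes at least 90% identical to Rnu5g had 5.36, 1.44 and 0.418. In the Sham IgG library these 8 genes held 113 reads, against 796 in the Sham anti-EZH2 library.

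Other small RNAs were compared in the same way. Of the Snora genes (H/ACA box), 11 of 32 were above 2 and 3 below 0.5 in Sham, 9 and 4 of 31 at AngII 4 h, and 1 and 20 of 28 at AngII 24 h. Of the Snord genes (C/D box), the counts were 6 and 1 of 18, 8 and 2 of 24, and 1 and 12 of 19. Of 8 RNAs made by polymerase III, among them the 7SK and RNase P RNAs, 1 was above 2 in Sham and 7 were below 0.5 at AngII 24 h. At AngII 24 h the medians of the Snora, Snord and polymerase III genes were 0.375, 0.291 and 0.463, beside 0.372 for the snRNA and Cajal body genes.

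**Figure D4:**
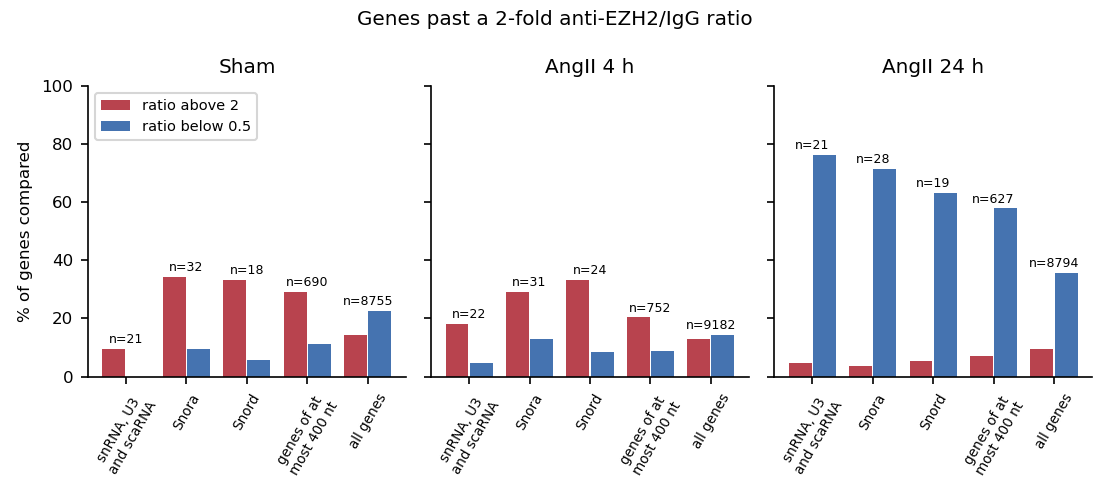
Share of genes compared (vertical axis, %) with an anti-EZH2/IgG ratio above 2 (red) or below 0.5 (blue), for the snRNA, U3 and scaRNA genes, Snora genes, Snord genes, genes of at most 400 nt and all genes, with n above each pair. At AngII 24 h the share below 0.5 is the larger of the 2 in every set, and it is 57.9% of the genes of at most 400 nt.

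The second comparison was between AngII and Sham within an antibody, and was chosen after earlier values had been seen. The 4 h and 24 h comparisons share the Sham libraries, and the IgG and anti-EZH2 libraries come from the same hearts, so they are not independent of each other. In bulk tissue, fewer cells of a type and less RNA per cell cannot be told apart. At 4 h with IgG, 4 of 22 genes had a ratio to Sham above 2 and 1 below 0.5. The shares were 19.6% and 14.5% of all genes, and 18.3% and 23.5% of genes of at most 400 nt. With anti-EZH2 the counts were also 4 and 1 of 22, beside 23.3% and 12.9% of all genes (11.5% and 24.7% up to 400 nt). Apart from Rnu2-10 and, with IgG, Rnu5g, the genes past the limit were U3 rows or had few reads. With IgG these were Rnu3a, Scarna17 (4 against 1 read) and Scarna8 (3 against 7 reads). With anti-EZH2 they were Rnu3b1, Rnu3b3, Rnu6 (under 1 read) and Rnu73b (2 against 4 reads). At 24 h the counts were 5 and 0 of 20 with IgG, and 1 and 8 of 22 with anti-EZH2. Beside them stood 22.9% and 12.8% of all genes with IgG (25% and 9.70% up to 400 nt). With anti-EZH2 the shares were 15.8% and 23.4% (4.22% and 54.3% up to 400 nt). The 1 gene above 2 with anti-EZH2 was the U3 row Rnu3a. The 5 with IgG included the U3 rows Rnu3b1 and Rnu3b3, and the 8 with anti-EZH2 included Rnu3b2 and Rnu3b4.

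Rnu2-10 was the 1 gene above 2 with both antibodies at 4 h, at 3.74 (3.23 to 4.33) with IgG and 3.05 (2.68 to 3.48) with anti-EZH2. At 24 h its ratio to Sham was 4.69 (4.05 to 5.45) with IgG and 1.71 (1.47 to 1.99) with anti-EZH2. Rnu1a1 was at 0.791 and 0.934 at 4 h and at 0.735 and 0.399 at 24 h, with IgG and anti-EZH2. Rnu12 was at 1.76 and 1.48 at 4 h, at 3.32 (2.49 to 4.47) with IgG at 24 h and at 0.783 (0.602 to 1.01) with anti-EZH2 at 24 h. Rnu11 was at 1.00 and 0.534 at 4 h and at 1.21 and 0.228 at 24 h. In all 4 comparisons the ratio to Sham of U2 was above that of U1, and that of U12 above that of U11.

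Ratios between genes of 1 library are free of the scaling of libraries. They are not free of differences in fragment length between libraries, because 1 model of fragment length served all 6. Rnu2-10 (191 nt) is longer than Rnu1a1 (164 nt) and Rnu12 (151 nt) longer than Rnu11 (134 nt), while Rnu5g (116 nt) is shorter than Rnu1a1. The part of length in these ratios was not tested. Reads of Rnu2-10 per read of Rnu1a1 were 0.0381 (0.0332 to 0.0436), 0.180 (0.168 to 0.193) and 0.243 (0.226 to 0.261) with IgG. With anti-EZH2 they were 0.0578 (0.0512 to 0.0651), 0.189 (0.178 to 0.201) and 0.248 (0.222 to 0.276). The intervals of both Sham libraries lay below those of all 4 AngII libraries, and within an AngII time point those of the antibodies overlapped. Over the genes at least 90% identical to each, U2 per U1 was 0.0200, 0.0826 and 0.108 with IgG and 0.030, 0.0867 and 0.113 with anti-EZH2. Against the summed reads of the scaRNAs, Rnu2-10 was at 0.182, 0.666 and 0.593 with IgG and at 0.263, 0.624 and 0.575 with anti-EZH2, so that the Sham libraries were lowest with this divisor too. The atrial markers also separated these libraries, with a summed FPKM of 34.5 and 23.1 in the Sham IgG and anti-EZH2 libraries and of 5.14 to 11.1 in the 4 AngII libraries. Among them Myl7, an atrial myosin light chain, was at 14.3 and 12.2 FPKM in the Sham libraries and at no more than 0.491 FPKM in the others. The part of the atrial markers in the ratios of U2 to U1 and, given next, of U12 to U11 was not tested.

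Reads of Rnu12 per read of Rnu11 were 1.02 (0.708 to 1.46), 1.78 (1.33 to 2.37) and 2.78 (2.11 to 3.74) with IgG and 0.956 (0.757 to 1.19), 2.64 (2.14 to 3.29) and 3.27 (2.16 to 5.04) with anti-EZH2. Both Sham intervals held 1 and the 4 AngII intervals lay above 1, and the intervals of Sham and AngII 4 h with IgG overlapped. Reads of Rnu5g per read of Rnu1a1 were 0.00630, 0.0302 and 0.0479 with IgG and 0.0449, 0.0533 and 0.0505 with anti-EZH2. The Sham IgG library stood apart from the other 5 here, which is the library that the Sham ratio of 4.64 divides by. Summed U1b genes per read of Rnu1a1 were 0.157, 0.234 and 0.235 with IgG and 0.203, 0.247 and 0.25 with anti-EZH2. The summed scaRNAs per read of Rnu1a1 were 0.210, 0.271 and 0.410 with IgG and 0.219, 0.302 and 0.431 with anti-EZH2, again with the Sham libraries lowest.

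**Figure D5:**
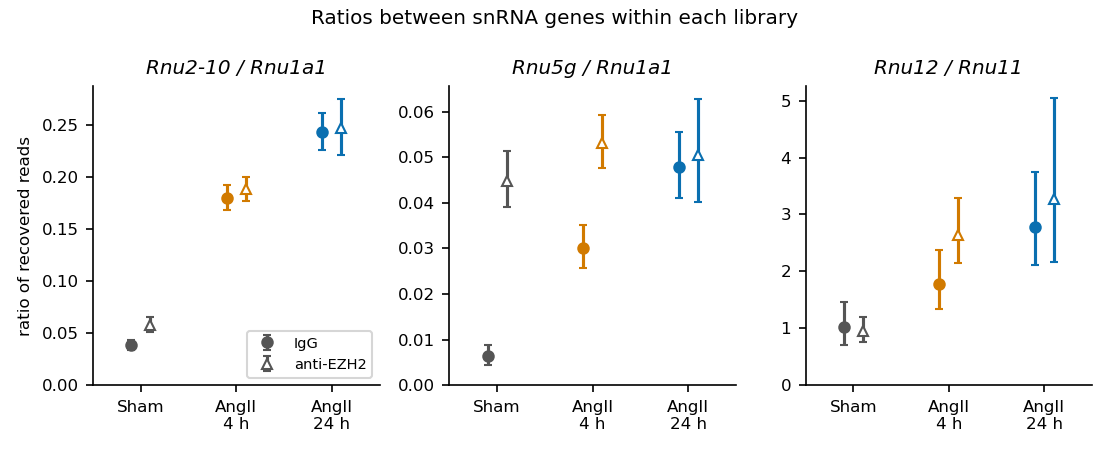
Recovered reads of Rnu2-10 and Rnu5g per read of Rnu1a1, and of Rnu12 per read of Rnu11 (vertical axes from 0), in each group with IgG (filled circles) and anti-EZH2 (open triangles); bars are exact 95% intervals. Rnu2-10 per Rnu1a1 is 0.0381 and 0.0578 in the Sham libraries and at least 0.180 in the others, and Rnu5g per Rnu1a1 is lowest in Sham IgG (0.00630).

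The protein partners of these RNAs were listed as 101 genes, of which 99 were in the tables. No counting interval was calculated for their ratios. In Sham, 67 could be compared, of which 10 were above 2 and 23 below 0.5, beside 14.3% and 22.6% of all genes. At AngII 4 h the counts were 12 and 15 of 74, beside 12.8% and 14.3% of all genes, and at AngII 24 h 7 and 26 of 69, beside 9.35% and 35.7%. Their median ratios were 0.596, 0.828 and 0.684. Of 58 protein genes that could be compared in every group, 1 (Mepce) was above 2 and 2 (Prpf3 and Toe1) were below 0.5 in all 3, beside 1.20% and 1.25% of all 7027 such genes. These 3 genes were picked by that pattern, and their values are given as a description.

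Mepce, which caps the 7SK RNA, was at 0.826, 0.780 and 2.44 FPKM with IgG and at 5.00, 5.62 and 5.34 FPKM with anti-EZH2. Prpf3, of the U4/U6 particle, was at 3.81, 3.97 and 3.48 FPKM with IgG and at 1.40, 1.23 and 1.56 FPKM with anti-EZH2. Toe1, an exonuclease that trims snRNA ends, had ratios of 0.491, 0.222 and 0.0491.

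Snrnp70, the U1 protein, was at 3.45, 3.36 and 2.67 FPKM with IgG and at 2.14, 3.06 and 3.12 FPKM with anti-EZH2. Snrpb, of the Sm ring, had ratios of 0.979, 0.838 and 0.912. Sf3b1, the U2 protein at the branch point, had ratios of 2.34, 1.70 and 0.357, and Prpf8, the core protein of U5, of 0.590, 1.29 and 0.50. Snrnp48 of the minor spliceosome was at 1.06, 0.591 and 2.84 FPKM with IgG and at 1.09, 0.582 and 1.94 FPKM with anti-EZH2.

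Of the Cajal body proteins, Smn1, which loads the Sm ring, had ratios of 0.506, 0.391 and 1.92, and Dkc1, which modifies bases with H/ACA guides, of 0.607, 2.01 and 0.644. Coil, the scaffold of the body, was above 0 in 1 IgG library (0.367 FPKM) and in all anti-EZH2 libraries (0.652, 1.65 and 0.413 FPKM). Wrap53, which brings scaRNAs to the body, was listed at 0 in all IgG libraries and at 0.923, 0.890 and 0.669 FPKM with anti-EZH2. By the limits used here Wrap53 could be compared in no group and Coil only at AngII 4 h. The share of all genes at 0 with IgG and above 0 with anti-EZH2 was not calculated. Lsm11, of the U7 particle, was between 0.0200 and 0.396 FPKM.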

How the data were processed

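RIP-seq was carried out on 6 libraries of mouse left ventricle. Per the labels, stranded reads were mapped to mm10 with TopHat2, and the authors deposited FPKM values both per library and in a joint table. How the FPKM were calculated, and on which annotation, is not given in the sources used here. The tables per library, whose headers match Cufflinks gene output, were used, because the joint table listed 10 of these genes at 0 throughout and 4 not at all.

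FPKM below 0.001 were set to 0, and rows of 60 repeated identifiers were added. Reads were recovered as FPKM times effective length, divided by the worth of 1 read, which was fitted on 15531 genes with 1 transcript of at least 400 nt; fragments were modelled with mean 200 nt, SD 80 nt and shortest 34 nt. Of 43 values of single-copy genes under 100 reads, 33 were whole to within 0.1 reads. Ratios were given with exact Clopper-Pearson intervals (95%), and with 1 library per group and antibody no test was run; the 3 groups differ in treatment and were not taken as replicates of the antibody comparison. A gene was called past a ratio of 2 or under 0.5 with an FPKM above 0 in both libraries and above 1.0 in at least 1. Genes above 0 in at least 4 libraries were given with all values, the others by counts or ranges. Named protein genes were Snrnp70, Snrpb, Sf3b1, Prpf8, Snrnp48, Lsm11, Coil, Wrap53, Smn1 and Dkc1 and those past 2-fold the same way in every group. The genes and lists were chosen with earlier results of these data known. Alternatives were a limit of 1.5 or 4, other FPKM and read minimums, a pseudocount of 1, division by the median ratio, the joint table and subsets of genes. Sequences and loci came from GENCODE M21. Scripts, tested on simulated data, ran under Python 3.11.15 with scipy 1.17.1, pandas 2.3.3, numpy 2.4.6, Biopython 1.88 and matplotlib 3.10.9. The sequence of Rnu5g is not reported here and was left out of the motif search.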

Additional observations from a re-analysis of the deposited data

Results flagged for a closer look

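For 5 genes the exact interval of the anti-EZH2/IgG ratio lay above 1 in 1 group and below 1 in another, with at least 1 read in each library. The difference between groups was not tested, because each ratio came from a single pair of libraries. Rnu5g had ratios of 4.64, 1.36 and 0.372, in the order Sham, AngII 4 h, AngII 24 h. Rnu11 had 1.92, 1.02 and 0.361, and Rnu12 had 1.81, 1.52 and 0.425, in the same order. Rnu3b1 and Rnu3b3, of identical sequence, both had 1.07, 4.66 and 0.505, whereas the Rnu3b1 locus with both of its rows had 0.967, 1.26 and 0.310. The AngII 24 h ratios stand beside a median of 0.418 over genes of at most 400 nt.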

How the results depend on the processing

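The values below are for alternatives that moved a count by over 1.5 times or a ratio by more than its interval. For the snRNA and Cajal body genes, a limit of 1.5 gave 4 above and 6 below in Sham and 5 below at AngII 4 h, and a limit of 4 gave 2 below at AngII 24 h. Division by the median ratio gave 4 above in Sham and 4 below at AngII 24 h. An interval apart from 1 left 1 above in Sham, and a pseudocount gave 2 above at AngII 24 h. The joint table, which holds values for 12 of the genes, gave 2 above and 0 below at AngII 4 h and 0 above and 2 below at AngII 24 h. Without U3 and U7 there were 2 above and 0 below at AngII 4 h and 0 above at AngII 24 h, and with both annotations of each U3 locus, chosen after seeing the data, the same counts were 2, 0 and 0. Also chosen after seeing the data, at least 1 read in both libraries gave 0 below at AngII 4 h and 0 above at AngII 24 h, and leaving out U1, U2, U3, U6 and U7 gave 1 above and 0 below at AngII 4 h and 0 above and 9 below at AngII 24 h.

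For the major spliceosomal genes, division by the median ratio gave 0.919, 0.889 and 0.550 in the 3 groups, summed reads gave 0.707 in Sham and 0.793 at AngII 4 h, leaving out Rnu1a1 gave 1.28 and 0.944 there, and the joint table gave 2.05 at AngII 4 h, on the other side of 1 and from Rnu5g alone, because the U1, U2 and U6 genes are at 0 there. For the minor spliceosomal genes, the joint table gave 2.43, 1.60 and 0.623, leaving out the higher gene gave 1.02 at AngII 4 h, and division by the median ratio gave 0.616 at AngII 24 h. For U3, the joint table gave 1.38 and both annotations 1.25 at AngII 4 h, and at AngII 24 h both annotations gave 0.316 and division by the median ratio 0.702. For the scaRNAs, division by the median ratio gave 0.929, 1.06 and 0.766, summed reads gave 0.682, 0.859 and 0.371, leaving out the highest gene gave 0.882 in Sham and 0.553 at AngII 24 h, and the joint table gave 1.12 at AngII 4 h. The joint table, in which Scarna10 has no row, put the summed scaRNAs at 1.01 at AngII 24 h. In it Scarna13, Scarna2, Scarna3a, Scarna3b and Scarna6 were each between 0.480 and 0.698 and Scarna8 was at 1.11, while Scarna17 had no ratio. The joint table turned the direction of Rnu3a at AngII 4 h (1.38) and AngII 24 h (0.472), and the cause was not tested.

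For the protein genes, a limit of 1.5 gave 37 below in Sham, 28 below at AngII 4 h and 12 above at AngII 24 h. Division by the median ratio gave 15 below in Sham and 20 above at AngII 24 h. The joint table gave 14 below in Sham, 8 below at AngII 4 h and 15 above and 12 below at AngII 24 h. The fold over Sham of U2 reads per U1 read was 4.72 and 6.38 with IgG at 4 and 24 h, and 3.27 and 4.29 with anti-EZH2. With the summed scaRNAs as divisor it was 3.66 and 3.25 with IgG and 2.37 and 2.19 with anti-EZH2, and over all genes at least 90% identical it was 5.41 with IgG at 24 h. These divisors were chosen after seeing the data, and the fold stayed above 1 under each.

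With 1 library per group and antibody, leaving out a replicate was not possible. The IgG and anti-EZH2 libraries of the 3 groups were not tested as pairs. Differences between groups cannot be told apart from differences between single libraries. Genes above 0 but under 20 reads in every library were Rnu6, Rnu6-ps2, Rnu73b and Scarna17, and of these only Scarna17 had an interval, which held 1 in both groups where it was calculated.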
